A study of Mus musculus with 4 samples.

Results

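Aminoacyl-tRNA synthetases join each amino acid to the tRNAs that carry it to the ribosome. The 36 genes described here comprise 20 for the cytosolic enzymes and 16 for the mitochondrial ones. They were picked by symbol from a deposited table of 23697 loci, with the row of highest mean level taken for each symbol. All 36 were found, each on 1 row, and all 36 passed the filter for testing, a mean of at least 1 FPKM (fragments mapped to a transcript, divided by its length and by the total mapped). Lars2, the mitochondrial leucyl-tRNA synthetase, was included because its knockdown values were known to be very low. Its difference is therefore given as a description and supports nothing.

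The RNA came from WW6 cells, a mouse embryonic stem cell line of mixed C57/B6J, 129/Sv and SJL background. They were grown without feeder cells on gelatin, in serum with leukemia inhibition factor. All cells were transiently transfected, using Lipofectamine LTX, with siRNA (small interfering RNA that lowers a chosen transcript). It targeted GFP in the 2 control libraries, A and B, and Kdm5b in the 2 knockdown libraries, A and B. Kdm5b encodes a demethylase of lysine 4 on histone H3, and the comparison asks what its loss does to transcription. Values are given in the order A then B within each group. No label gives a time of harvest or names separate cultures for A and B, so p-values measure only the spread between these libraries. In bulk RNA, fewer cells of a type and less RNA per cell cannot be told apart.

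A charged tRNA is made in a pair of steps on a single enzyme, which first activates the amino acid with ATP and then passes it to the tRNA. The enzymes fall into class I and class II, which have unrelated catalytic folds. In animal cells several cytosolic synthetases are held in a multi-synthetase complex on scaffold proteins. Mitochondria translate their own few messages with mostly separate synthetases that are encoded in the nucleus and imported. Gars and Kars each serve both compartments from a single gene. Many cytosolic synthetase genes are known targets of ATF4, a transcription factor of the integrated stress response that restores amino acid supply.

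ATF4 binds with C/EBP partners at elements whose core can be written TGATGNAA. Promoter sequences were searched for these letters on both strands, in windows of 250 bases before to 50 bases after the start (RefSeq, GRCm38.p6). The table held 27 of the 36 genes. Cars, Hars, Lars, Nars, Rars, Vars, Wars, Hars2 and Pars2 were the others. The letters were found in 5 of 27 synthetase genes, against 1219 of 27025 genes in the table (4.51%). All 5 were cytosolic: Aars, Gars, Iars, Tars and Yars. They were 5 of 13 cytosolic genes with a sequence and 0 of 14 mitochondrial ones. All 5 also belonged to a list of 12 cytosolic genes reported elsewhere to respond to ATF4, of which 8 had a sequence, whereas 0 of the 5 other cytosolic genes held the letters. A match is a description of the letters, not a binding site. The matches are shown with up to 40 bases on each side, ending no more than 20 bases into the transcript, since they are what these promoters share. Capitals mark the matched letters, on either strand, and each run reads 5′ to 3′ along the gene. The stretches lie at chr8:111033690-111033861 (plus strand, Aars), chr6:55037931-55038018 (plus, Gars), chr13:49682097-49682149 (plus, Iars), chr15:11399639-11399713 (minus, Tars) and chr4:129189866-129189922 (plus, Yars).
Aars: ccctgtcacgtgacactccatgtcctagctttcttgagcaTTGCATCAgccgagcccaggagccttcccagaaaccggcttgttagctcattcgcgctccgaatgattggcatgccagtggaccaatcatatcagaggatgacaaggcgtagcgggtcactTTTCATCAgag
Gars: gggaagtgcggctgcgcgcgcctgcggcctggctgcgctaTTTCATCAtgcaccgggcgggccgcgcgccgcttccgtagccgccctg
Iars: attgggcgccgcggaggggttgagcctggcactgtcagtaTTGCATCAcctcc
Tars: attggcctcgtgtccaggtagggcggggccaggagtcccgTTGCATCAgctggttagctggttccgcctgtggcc
Yars: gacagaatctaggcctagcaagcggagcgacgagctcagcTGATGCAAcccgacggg
Aars held 2 matches, the first beginning 112 bases before the start and the other 9 bases after it. In Iars, Tars and Aars the letters TTGCATCA recurred, and Yars held the reverse complement of these letters. The FPKM of these 5 genes are given with the cytosolic enzymes.

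The libraries were alike in depth except for knockdown A. The FPKM table carries no totals, but the steps between its lowest values put the depth of control A at 103%, knockdown A at 77.4% and knockdown B at 99.3% of control B. Knockdown A listed 11953 loci at 0, against 8131 to 8609 in the other libraries. It also stood apart in its values, with a Pearson correlation across tested loci (log2 scale) of 0.867 to 0.891 with the other libraries, against 0.940 to 0.957 among those 3. Knockdown B was thus closer to both controls than to knockdown A. The targeted gene followed the labels, with Kdm5b at 99.7 and 145 FPKM in control and 22.7 and 31.1 in knockdown. Even so, Kdm5b was not called by limma (log2 fold change -2.14, limma adjusted p 0.562), so a gene that is not called may still differ. All 10 stem cell markers exceeded 1 FPKM in all 4 libraries, with summed levels of 3663 to 4760 FPKM. The sums do not show single markers. In Klf4, Esrrb and Lin28a both knockdown libraries lay below both controls, beside 16.9% of all loci, and the other markers overlapped. Klf4 was at 46.5 and 55.4 FPKM in control and 29.3 and 26.8 in knockdown. None of the 7 endoderm markers and none of the 6 fibroblast markers exceeded 1 FPKM in all 4. Their summed levels were nonetheless lower in knockdown, at 10.8 and 15.0 FPKM in control against 2.59 and 2.91 FPKM for endoderm, and at 9.25 and 2.92 against 0.258 and 1.55 FPKM for fibroblast. These sums rest on few genes at low levels. Cubn held 4.23 and 7.39 FPKM of the endoderm sums in control, and Acta2 6.48 of the fibroblast sum in control A. Gata6 was not lower in knockdown A, at 2.32 FPKM against 1.81 and 2.09 in control. Col1a1 averaged 0.0754 FPKM in control and 0.0784 in knockdown. Foxa2 was listed at 0 in 3 libraries and Afp in both knockdown libraries. Whether endoderm or fibroblast cells were present, and any part of them in the differences below, was not tested.

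Cytosolic synthetase genes were abundant and close to each other in level, and mitochondrial ones other than Lars2 were scarce and spread out. By mean FPKM over the 4 libraries, a scale per transcript length, the cytosolic genes ran from 58.2 FPKM for Yars to 237 FPKM for Gars, with a median of 107. Gars, which makes glycyl-tRNA for both compartments, stood at 250 and 265 FPKM in control and 242 and 191 in knockdown. Next came Kars at 187, Nars at 177, Aars at 174 and Lars at 168 FPKM. These neighbours overlapped in their single libraries, so their order does not exceed the spread. Of the mitochondrial genes other than Lars2, Iars2, for isoleucine, was highest at a mean of 47.1 FPKM, below the lowest cytosolic mean. Wars2, for tryptophan, was lowest, at 2.11 and 2.05 FPKM in control and 1.01 and 2.02 in knockdown. Its value in knockdown A rests on an estimated 13.9 fragments, while every value of each other member rests on at least an estimated 51.0. The median of these 15 genes was 14.4 FPKM.

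**Figure D1:**
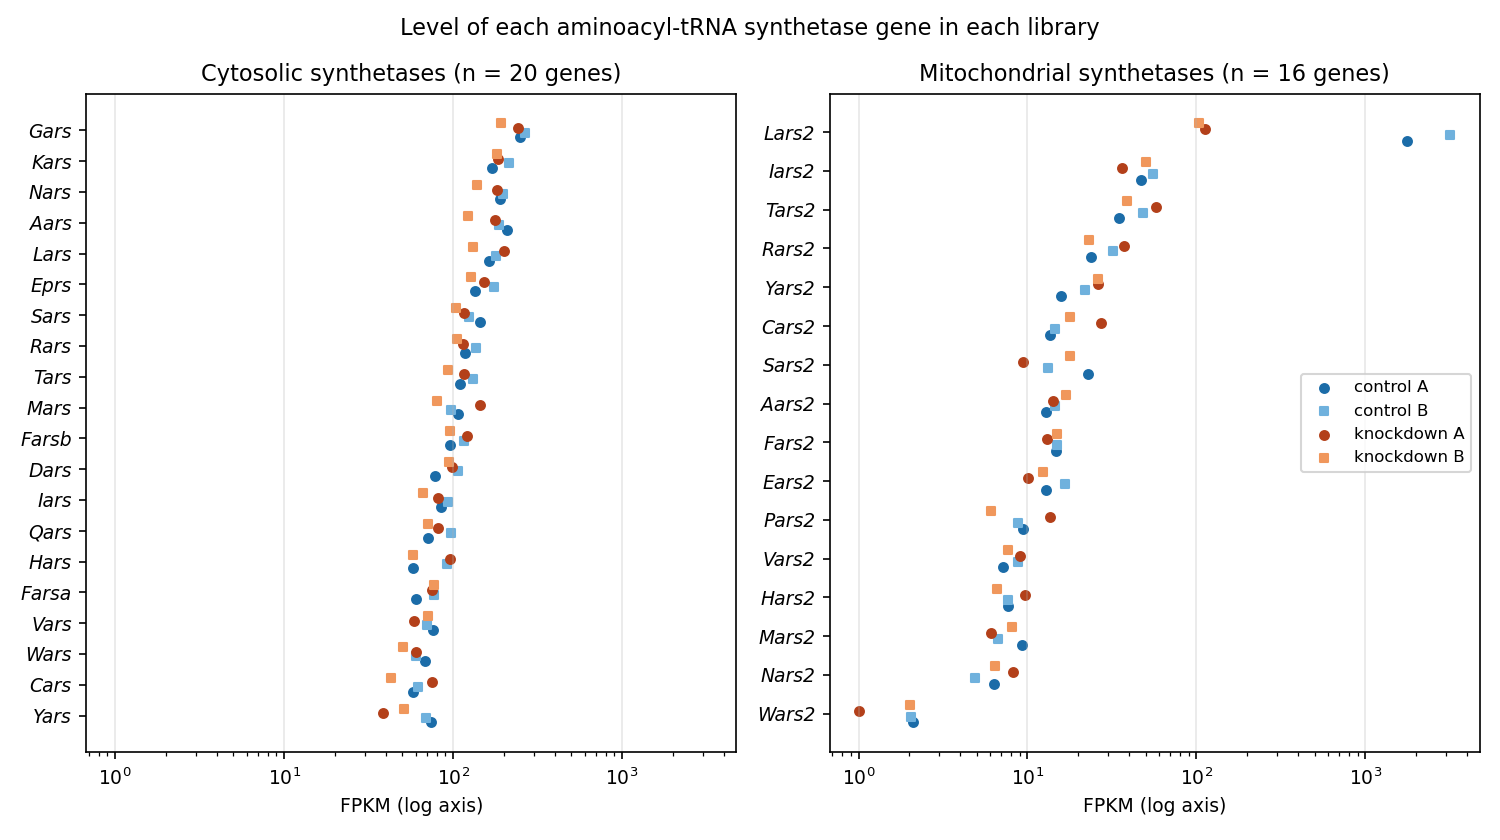
FPKM on a log axis for each synthetase gene (rows), with 1 point per library and the cytosolic and mitochondrial genes in separate panels. Cytosolic means span 58.2 to 237 FPKM, and Lars2 is the gene whose knockdown points lie farthest from its control points, at 113 and 103 against 1754 and 3176 FPKM.

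Lars2 stood apart from every other synthetase gene in the controls. It lies at chr9:123276058-123371782 in the mm9 build of the deposited table. It was measured at 1754 FPKM in control A, 3176 in control B, 113 in knockdown A and 103 in knockdown B. Both knockdown libraries were far below both controls, at 4.39% of the control mean, and the controls differed from each other by 1.81 times. The log2 fold change was -4.44 (SE 0.32, 95% interval -5.21 to -3.67), with a limma adjusted p of 0.0228. Among all 11784 loci tested, limma called 4 (0.0339%), all lower in knockdown, and 290 had an unadjusted p under 0.05. Lars2 was 1 of these 4, in the contrast by which it was chosen, so nothing is read from that count. Its call was lost without control A (-4.87, limma adjusted p 0.358), without control B (-4.01, limma adjusted p 0.193) and without knockdown A (-4.50, limma adjusted p 0.0808), but not without knockdown B (-4.37, limma adjusted p 0.0321). It was also lost without the filter on low values (limma adjusted p 0.413) and without a variance trend (limma adjusted p 0.390).

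The level of Lars2 in control cells was unlike that of its family. It was 37.4 and 57.6 times the highest of the other mitochondrial synthetase genes in controls A and B, and 1.95 and 2.05 times in knockdowns A and B. It was the most abundant mitochondrial synthetase gene in all 4 libraries, knockdown included. Lars, the cytosolic gene for the same amino acid, was at 164 and 179 FPKM in control and 200 and 131 in knockdown. The mitochondrial gene thus exceeded its cytosolic counterpart in both controls, at 1070% and 1775% of it, and was below it in both knockdown libraries, at 56.4% and 78.9%. For each of the other mitochondrial genes with its cytosolic counterpart for the same amino acid, the mitochondrial gene was the lower in all 4 libraries. Lars2 alone made up 40.7% and 53.0% of the summed FPKM of the 36 genes in controls A and B, and 4.03% and 4.46% in knockdowns A and B.

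A locus annotated as a microRNA, Mir6236, was high and low in the same libraries as Lars2. It was listed at 44098 and 82682 FPKM in control and 1875 and 1813 in knockdown, on a transcript far shorter than a fragment, for which FPKM is unstable. The ratio of control B to control A was 1.87 for Mir6236 and 1.81 for Lars2, and that of knockdown B to knockdown A was 0.967 and 0.913. The controls exceeded the knockdown libraries by 34.4 times for Mir6236 and 22.8 times for Lars2. Mir6236 had a log2 fold change of -5.03 (limma adjusted p 0.0228) and was, like Lars2, among the 4 loci called. Beyond its coding part, Lars2 also holds sequence found in other transcripts. In its GENCODE transcript, 3894 bases long with the coding part ending at base 2908, bases 3233 to 3329 matched AA474408 at 94.8% identity over 97 bases and bases 3278 to 3349 matched Gm15564 at 98.6% over 72 bases. The search covered GENCODE transcripts at an e-value limit of 1e-10 and listed no match with Mir6236. Shared stretches too short to reach this limit would not be listed, so the search cannot show that Lars2 and Mir6236 share no sequence. Neither AA474408 nor Gm15564 was among the loci read from the table, and fragments shared between such copies could be counted to either. The part of Mir6236 and of these matches in the Lars2 values was not tested.

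**Figure D2:**
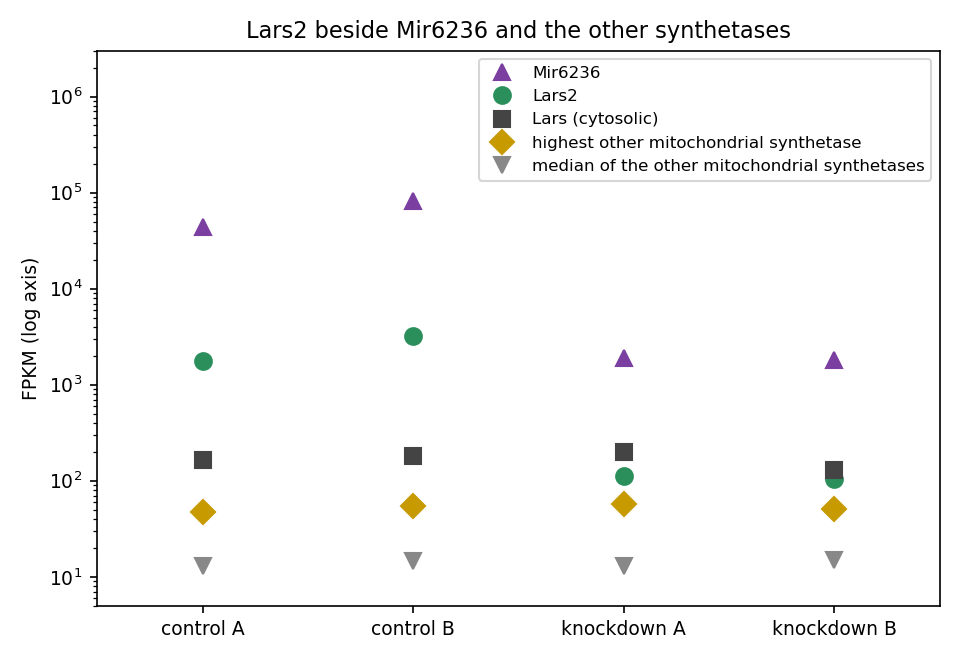
FPKM on a log axis in each of the 4 libraries for Lars2, Mir6236, the cytosolic gene Lars, and the highest and the median of the 15 other mitochondrial synthetase genes. Lars2 and Mir6236 are both high in the control libraries and low in the knockdown libraries, while the median of the other mitochondrial genes stays between 12.9 and 15.0 FPKM.

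None of the 35 other synthetase genes was called, with limma adjusted p-values from 0.918 to 0.996, and 1 of them had an unadjusted p under 0.05. In 9 of the 35 (25.7%) both knockdown libraries lay below both controls, against 16.9% of all loci tested. In 3 of the 35 (8.57%) both lay above, against 15.0% of all loci. Of all 36, 2 genes, Lars2 and Yars, had separate groups with a fold change of at least 0.5 log2 units lower, a pattern held by 9.37% of all loci. Cars2 alone had it in the other direction, held by 6.31% of all loci. Between the controls the median absolute difference was 0.19 log2 units for the cytosolic genes and 0.29 for the mitochondrial ones, beside 0.32 over all loci, whose median level of 12.3 FPKM is nearer to that of the mitochondrial genes. The 95% intervals of single members extended from 0.52 to 1.35 log2 units on each side of the estimate, so changes smaller than this could not be told from none.

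**Figure D3:**
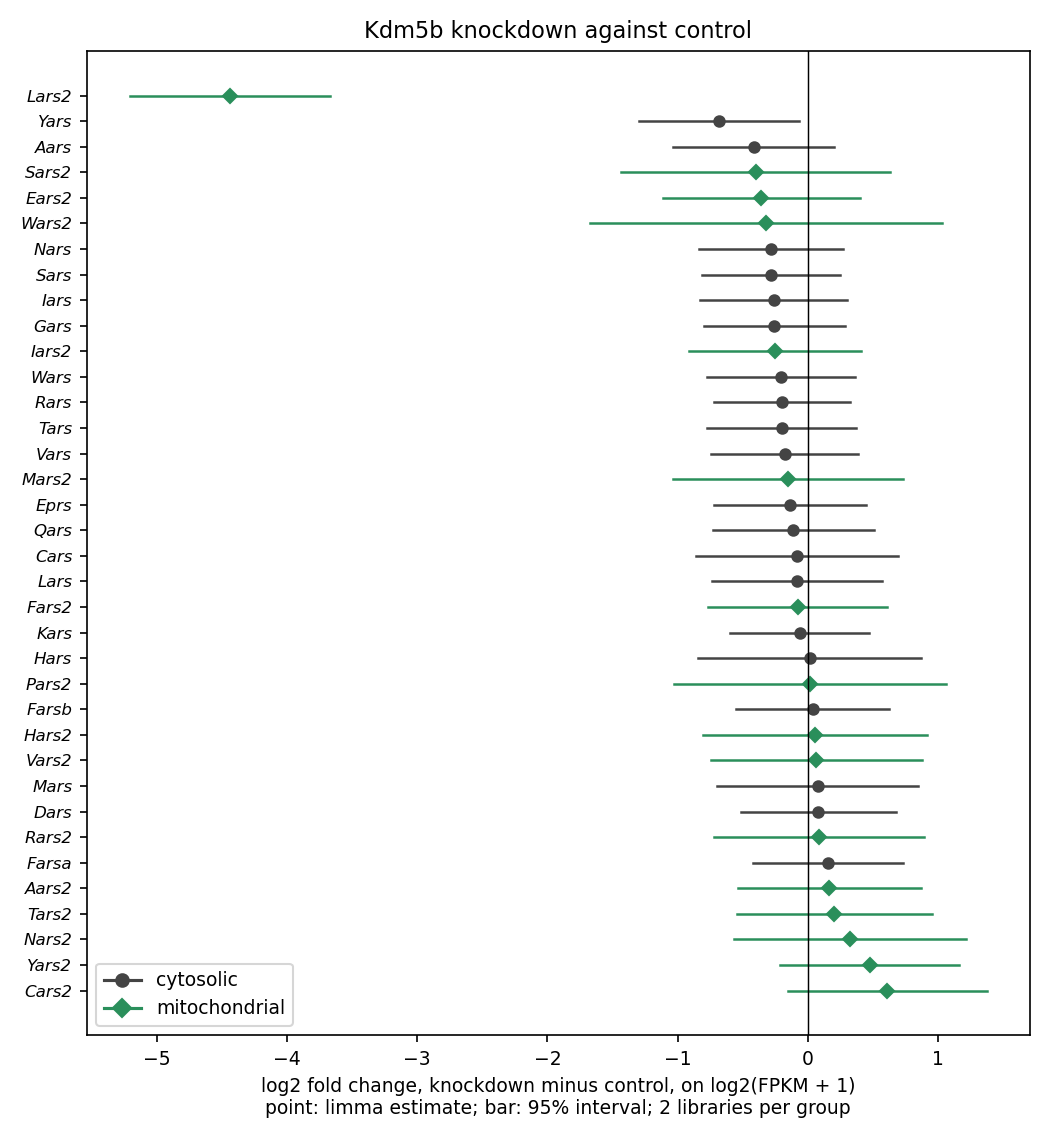
Log2 fold change of each synthetase gene, knockdown minus control, on log2(FPKM + 1), with the limma estimate as a point and its 95% interval as a bar, from 2 libraries per group. Lars2 lies at -4.44, and the intervals of all other genes but Yars cross 0.

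Among the cytosolic enzymes, 15 of 20 genes were on the lower side in knockdown and 5 on the higher side, and none was called by limma. The median log2 fold change was -0.16, beside -0.03 for all loci tested, of which 6229 of 11784 were on the lower side. The median depended on the library: it was -0.27 without control A, -0.05 without control B, -0.34 without knockdown A and -0.05 without knockdown B. In 7 of 20 both knockdown libraries lay below both controls, beside 16.9% of all loci, and in 0 of 20 above, beside 15.0%. For 18 of the 20 genes the 95% interval lay within 1 log2 unit of 0 on both sides. The summed FPKM of the 20 genes was 2316 and 2549 in controls A and B and 2411 and 1954 in knockdowns A and B, so only knockdown B stood below the control range.

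Yars, the tyrosyl-tRNA synthetase, had the lowest cytosolic estimate. It was at 74.3 and 69.0 FPKM in control and 38.2 and 51.2 in knockdown. Both knockdown libraries were below both controls, at 62.4% of the control mean (log2 fold change -0.68, SE 0.25, 95% interval -1.29 to -0.07, limma adjusted p 0.918). Its locus shares an interval with C77080, so fragments of the 2 genes may not be told apart. Aars, which charges alanine and whose promoter holds 2 of the matches shown, was at 208 and 187 FPKM in control and 177 and 123 in knockdown. These groups did not overlap either, at a log2 fold change of -0.42 (SE 0.25). The other genes with both knockdown libraries below both controls were Nars, Sars, Iars, Gars and Rars, for asparagine, serine, isoleucine, glycine and arginine. Their estimates lay between -0.29 and -0.20. Iars was at 84.4 and 92.6 FPKM in control and 81.8 and 66.1 in knockdown. The fifth gene with the ATF4 letters, Tars, for threonine, was at 110 and 131 FPKM in control and 117 and 93.1 in knockdown. Tars thus overlapped between the groups.

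The 13 remaining cytosolic genes overlapped between the groups. On the lower side were Wars (tryptophan, -0.21), Tars (-0.20), Vars (valine, -0.18), Eprs (-0.14), Qars (glutamine, -0.11), Cars (cysteine, -0.09), Lars (-0.08) and Kars (lysine, -0.06). On the higher side were Farsa (0.16) and Farsb (0.04), the subunits of the phenylalanine enzyme, with Dars (aspartate, 0.08), Mars (0.07) and Hars (histidine, 0.01). Hars crossed to -0.0012 under upper-quartile scaling and Farsb to -0.0046 under quantile normalization. When each library was left out in turn, 10 of these 13 genes changed sign at least once; Tars, Vars and Wars did not.

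Synthetase genes that respond to ATF4 in other studies were on the lower side in knockdown, chiefly through knockdown B. The list, drawn up with earlier results of these data known, holds Aars, Cars, Eprs, Gars, Iars, Lars, Mars, Nars, Sars, Tars, Wars and Yars. Of its 12 genes, 11 were on the lower side, beside 52.9% of all loci, and 6 had both knockdown libraries below both controls, beside 16.9% of all loci. The median was -0.23. Of the 8 other cytosolic genes, 4 were on the lower side and 1, Rars, had separate groups, with a median of -0.02. The difference between the lists was not tested. In knockdown B, 12 of the 12 listed genes lay below both controls, against 2 of the 8 other cytosolic genes and 29.5% of all loci. In knockdown A it was 6 of 12, against 42.3% of all loci, and 3 of 12 lay above both controls, against 4340 of 11784 loci. Against the mean of the controls, the median of the 12 genes was -0.09 in knockdown A and -0.40 in knockdown B. Over all loci it was -0.04 in knockdown A and 0.0063 in knockdown B. These are also the medians when the other knockdown library is left out. The medians of the listed and the other cytosolic genes were -0.31 and -0.18 without control A, and -0.21 and 0.14 without control B. Knockdown B was below knockdown A in 11 of the 12 genes, beside 46.7% of all loci. Yars went the other way, at -0.89 in knockdown A and -0.48 in knockdown B against the control mean. Mars, for methionine, had the widest contrast between these libraries and was the only listed gene on the higher side (0.07). It was at 107 and 97.8 FPKM in control, 143 in knockdown A and 80.6 in knockdown B. Its knockdown values lie on both sides of the controls, and its locus shares an interval with Ddit3.

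**Figure D4:**
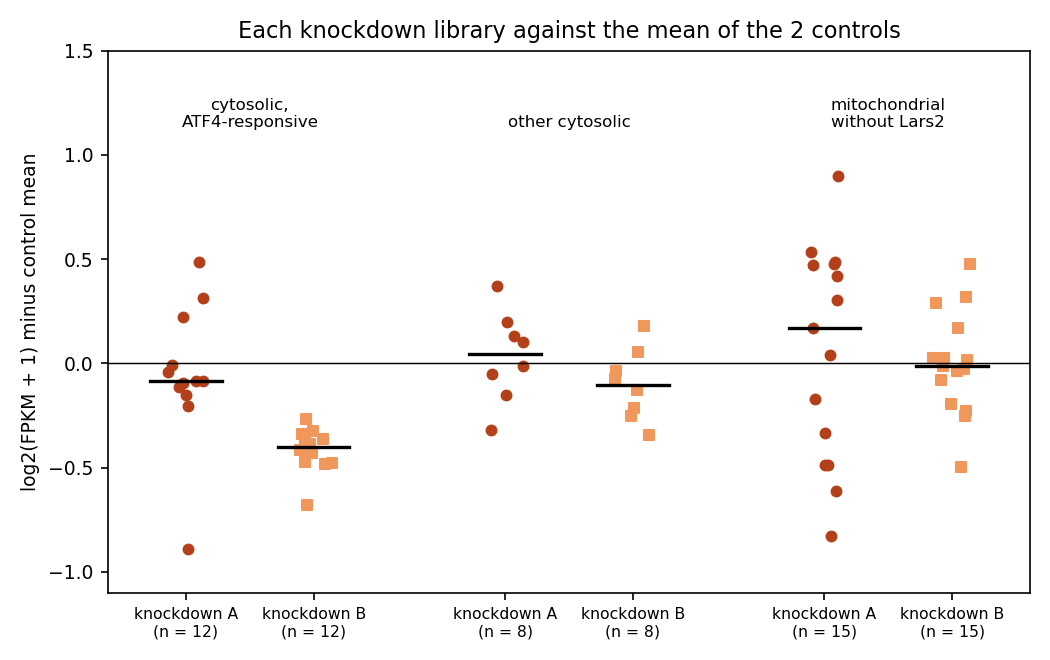
Difference of each knockdown library from the mean of the 2 controls, on log2(FPKM + 1), with 1 point per gene and the genes grouped by list. The 12 ATF4-responsive cytosolic genes center at -0.09 in knockdown A and at -0.40 in knockdown B.

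The multi-synthetase complex was described by 8 genes, Dars, Eprs, Iars, Kars, Lars, Mars, Qars and Rars. Of these, 6 were on the lower side, beside 52.9% of all loci. In 2 of the 8 both knockdown libraries lay below both controls, beside 16.9% of all loci. The median log2 fold change was -0.10. It was 0.030 without control B, -0.27 without control A, -0.26 without knockdown A and -0.010 without knockdown B. In all 8 the value in knockdown B was below that in knockdown A, a pattern seen in 46.7% of all loci. It was not particular to the complex, since 9 of the 12 other cytosolic genes had it, making 17 of 20. Eprs, which joins glutamate and proline activities in 1 protein, was at 135 and 174 FPKM in control and 153 and 127 in knockdown. These ranges overlapped. The 3 scaffold genes of the complex lay on the other side, with a median of 0.51 and no call (limma adjusted p 0.918). Aimp1 was at 86.2 and 87.7 FPKM in control and 138 and 112 in knockdown, with no overlap (log2 fold change 0.51, SE 0.22). Eef1e1 (0.58) and Aimp2 (0.34) overlapped between the groups, and were at 0.13 and 0.11 without control A. Without control A the scaffold median was 0.13.

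The mitochondrial enzymes showed no common direction. Of 16 genes, 9 were on the higher side and 7 on the lower, with a median log2 fold change of 0.04, or 0.05 without Lars2. The median was -0.027 without control A, 0.015 without control B, -0.019 without knockdown A and 0.11 without knockdown B. In 3 genes, Lars2, Ears2 and Wars2, both knockdown libraries lay below both controls, and in 3 others, Cars2, Yars2 and Nars2, both lay above, which is close to the shares over all loci (16.9% and 15.0%). Wars2 (-0.32) had knockdown B close under its lower control and turned to 0.033 under quantile normalization. Cars2, which charges cysteine, was at 13.6 and 14.6 FPKM in control and 27.1 and 17.8 in knockdown. Both knockdown libraries were above both controls (log2 fold change 0.61, SE 0.31, 95% interval -0.16 to 1.37, limma adjusted p 0.918), and the estimate was 0.32 without knockdown A. Yars2, for tyrosine, was at 15.8 and 21.8 FPKM in control and at 26.2 in both knockdown libraries. Its estimate of 0.47 is opposite in sign to that of its cytosolic counterpart Yars, and Yars2 stood at 21.3% and 31.5% of Yars in controls A and B and at 68.5% and 51.2% in knockdowns A and B. Ears2, for glutamate, was at 12.8 and 16.6 FPKM in control and 10.1 and 12.3 in knockdown. These groups were close to touching, at an estimate of -0.36 (SE 0.31). Iars2 (-0.25) overlapped between groups and shares its interval with Rab3gap2 and several small RNA genes. The other 9 genes overlapped too, from -0.40 for Sars2 (serine) to 0.20 for Tars2 (threonine), with Mars2 at -0.15, Fars2 at -0.08, Pars2 at 0.02, Hars2 at 0.05, Vars2 at 0.07, Rars2 at 0.08 and Aars2 at 0.17. Nars2, for asparagine, was at 6.36 and 4.88 FPKM in control and 8.16 and 6.41 in knockdown, groups that nearly met (0.32, SE 0.37).

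Splitting by enzyme class gave a similar picture of small differences, apart from Lars2 (-4.44), which is in class I. Of 19 class I genes 14 were on the lower side, and of 17 class II genes 8 were, beside 52.9% of all loci. The class I median was -0.15 (-0.25 without knockdown A and -0.086 without knockdown B), and the class II median was 0.015. The difference between the classes was not tested. Without control A the class II median was -0.10 and without knockdown A it was -0.13. Eprs is counted in class I here although its other activity is of class II.

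The rest of tRNA charging and the ATF4 stress genes were covered by 66 genes on 7 lists, of which 65 passed the filter. None was called by limma (adjusted p of at least 0.918), and 3 had an unadjusted p under 0.05. Of the 65, 34 were on the higher side and 31 on the lower. The 17 ATF4 stress genes held 2 of those 34, 15 of those 31 and all 3 with an unadjusted p under 0.05. Other genes of mitochondrial aminoacylation numbered 5, with a median of 0.58 and 3 genes with both knockdown libraries above both controls, beside 15.0% of all loci. Gatb, a subunit of the enzyme that makes mitochondrial glutaminyl-tRNA, was at 13.5 and 11.0 FPKM in control and 34.9 and 15.0 in knockdown. Mtfmt, which formylates the initiator methionyl-tRNA of mitochondria, was at 8.72 and 8.67 FPKM in control and 21.2 and 9.45 in knockdown. In both genes knockdown A was far above knockdown B, and the estimates were 0.86 and 0.65, or 0.27 and 0.11 without knockdown A. Qrsl1, another subunit of the glutaminyl-tRNA enzyme, had an estimate of 0.58. The median of the 5 was 0.16 without control A and 0.11 without knockdown A.

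Editing and proofreading genes, which remove wrongly attached amino acids or free stalled peptides, split 4 to 3 with a median of 0.05, which was -0.15 without control A and -0.13 without knockdown A. The 5 selenocysteine genes had a median of 0.19 (0.51 without control B) and the 22 tested tRNA maturation and export genes one of 0.17, with 14 of the 22 on the higher side. Without control A the latter was -0.0024. Pop7 (0.76) and Pop1 (0.64), subunits of ribonuclease P, were at the upper end and Rpp40 (-0.58), another subunit, at the lower. Without control A, Pop7 was at 0.21 and Pop1 at 0.24, and without knockdown A, Rpp40 was at -0.19. Of 6 tRNA delivery factors 4 were on the higher side, led by the mitochondrial elongation factors Tufm (0.56) and Tsfm (0.43). Without knockdown A these 2 were at 0.11 and 0.14.

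ATF4 and its other stress targets lay on the lower side, in 15 of 17 genes, with a median of -0.41 and 7 genes with both knockdown libraries below both controls, beside 16.9% of all loci. The controls themselves differed: 13 of the 17 were highest in control A of all 4 libraries, beside 29.7% of all loci. Control B was above control A in 3 of 17, beside 48.3% of all loci. The median of the 17 was -0.15 without control A and -0.85 without control B. The share of this spread in the knockdown difference was not tested. Atf4 was at 459 and 309 FPKM in control and 289 and 277 in knockdown, so that control B stood much closer to the knockdown libraries than to control A. Nupr1, a small stress-induced chromatin protein, was at 96.3 and 25.0 FPKM in control, listed at 0 in knockdown A and at 11.6 in knockdown B. Its groups did not overlap (log2 fold change -3.83). Ddit3, the factor also called CHOP, was at 63.4 and 15.9 FPKM in control and 6.31 and 22.4 in knockdown, so its groups overlapped. Other genes had controls close to each other. Asns was at 211 FPKM in both controls and 149 and 103 in knockdown, and Ddit4 at 32.3 and 30.7 against 24.6 and 21.2. The groups of both genes were separate. Phgdh also had close controls, at 20.8 and 21.6 FPKM, but its groups overlapped. Of the ATF4-responsive synthetase genes, 4 of 12 were highest in control A, beside 29.7% of all loci, and 11 of 12 were lowest in knockdown B, beside 9 of 17 stress genes and 16.3% of all loci. The difference between these lists was not tested.

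**Figure D5:**
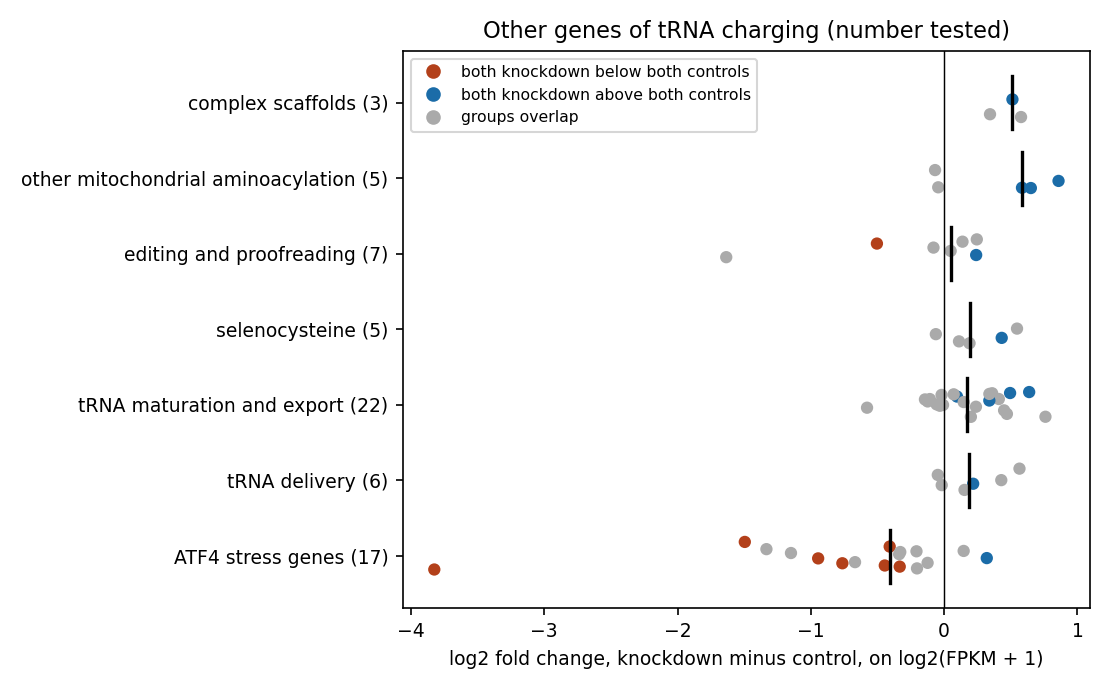
Log2 fold change, knockdown minus control, on log2(FPKM + 1), for each tested gene of the 7 pathway lists, with 1 point per gene, colored by whether the 2 knockdown libraries lay below, above or among the controls. The ATF4 stress genes center at -0.41 and the 3 scaffold genes at 0.51, and no gene was called.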

How the data were processed

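RNA-seq libraries of WW6 cells, 2 control and 2 knockdown, were grouped by their titles. Ribosomal RNA was removed and strand-marked libraries were made, per the labels' protocols. The authors deposited 1 table of FPKM per locus. Cufflinks and Cuffdiff were used with mm9, per the submitters' processing notes. No source used here gives their versions, the aligner or any use of strand in counting, and overlapping or antisense genes may share fragments (7 of the 36 genes share an interval with another locus). Loci were named through RefSeq identifiers and GRCm38.p6 names: 23241 had 1 symbol, 189 several and 267 none.

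Depth was estimated from the steps between low values (80.1% to 82.9% within 0.15 of a whole number of fragments), so no counting intervals were made. Loci averaging 1 FPKM or more were tested on log2(FPKM + 1), which understates changes of low genes, with limma 3.58.1 (group alone, eBayes with trend, R 4.3.3), two-sided, at a Benjamini-Hochberg adjusted p under 0.05 over 11784 loci. The fit was tested on simulated data. Lists are described by counts and medians. Python 3.11.15, numpy 2.4.6, pandas 2.3.3, matplotlib 3.10.9 and BLAST 2.17.0 were used.

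The members and lists were chosen with earlier results of these data known. Values per library are given for Lars2, for members with separate groups and at least 0.5 log2 units of change, and for the highest and lowest of each compartment; of each pathway list at most 4 genes by largest fold change are named. Genes shown beyond this (Aars, Iars, Tars, Mars, Eprs, Lars, Yars2, Nars2, Ears2, Atf4, Asns, Ddit4, Phgdh, Mir6236) were chosen after their values were seen. Alternatives were other filters (none, 5 FPKM) and pseudocounts (0.1, 0.01), upper-quartile and quantile normalization, eBayes without trend, the replicate letter as a block and each library left out.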

Additional observations from a re-analysis of the deposited data

How the results depend on the processing

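Across settings other than leaving out a library, 3 of 287 combinations of a gene and a setting changed sign: Farsb, from 0.04 to -0.0046, and Wars2, from -0.32 to 0.033, under quantile normalization, and Hars, from 0.01 to -0.0012, under upper-quartile scaling; the cause was not tested. No synthetase gene was newly called in any of them. The count of synthetase genes called, 1 in the report, was 0 with no filter on low values and 0 with eBayes without trend, where Lars2 kept its value of -4.44 but not its call, and 0 to 1 when each library was left out, with Lars2 at -4.87 to -4.01. All loci called numbered 4, and 1 with no filter, 2 without trend, 0 without either control, 13 without knockdown A and 134 without knockdown B. With the replicate block, Lars2 was -4.44 (limma adjusted p 0.000217), and 1 synthetase gene and 7 loci in all were called. Same-lettered libraries did not deviate together (correlation -0.07 over 11784 loci and -0.26 over the 36 synthetase genes). With 2 libraries per group this cannot show whether the letters mark pairs.

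Leaving out each library moved the cytosolic median between -0.34 and -0.046 and the mitochondrial median between -0.027 and 0.11. It reversed 18 of 36 genes, whose estimates ranged from -0.48 to 0.31 for Cars, -0.14 to 0.30 for Dars, -0.32 to 0.047 for Eprs, -0.17 to 0.018 for Fars2, -0.020 to 0.33 for Farsa, -0.13 to 0.20 for Farsb, -0.34 to 0.37 for Hars, -0.20 to 0.30 for Hars2, -0.23 to 0.10 for Kars, -0.39 to 0.22 for Lars, -0.34 to 0.49 for Mars, -0.36 to 0.051 for Mars2, -0.50 to 0.54 for Pars2, -0.34 to 0.11 for Qars, -0.25 to 0.42 for Rars2, -0.83 to 0.025 for Sars2, -0.078 to 0.49 for Tars2 and -0.067 to 0.20 for Vars2. The median of the editing and proofreading genes ranged from -0.15 to 0.16 and that of tRNA maturation and export genes from -0.0024 to 0.31. Taking every row of a symbol changed nothing, since each member has 1. Depth was only estimated, so its share in the width of the intervals was not tested. The fewest estimated fragments behind a value were 13.9 for Wars2, 51.0 for Sars2, 53.2 for Mars2 and 60.8 for Ears2.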
